A study of Mus musculus with 12 samples.

Results

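The Nlrp genes Nlrp4a, Nlrp4b, Nlrp4c, Nlrp4e, Nlrp4f, Nlrp4g, Nlrp9a, Nlrp9b, Nlrp9c and Nlrp14, all of them genes of the mouse oocyte, were followed through nucleus and cytoplasm of oocytes with and without the RNA helicase MTR4. They were taken by gene symbol, and all 10 of 10 were found among the 23235 gene entries of the table. Of these, 9 reached 1 FPKM in 3 or more libraries of the 12 and were tested; Nlrp4g was listed at 0 in every library. FPKM counts sequenced fragments relative to transcript length and to all mapped fragments of a library, and is thus a share of that library, so levels of different genes can be compared with each other.

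The oocytes came from mice at day 14 and were wild type (WT) or Mtr4-null. The allele, the Cre driver if one was used, the strain and the number of mice behind each library are not stated in the labels. Nucleus and cytoplasm were parted by micromanipulation, and each library was made from total RNA, depleted of ribosomal RNA, of 10 pooled nuclei or 10 pooled cytoplasms. The 4 groups were WT nucleus, WT cytoplasm, Mtr4-null nucleus and Mtr4-null cytoplasm, with 3 libraries each.

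NLRP proteins belong to the NOD-like receptor family: an N-terminal pyrin domain, a nucleotide-binding NACHT domain and a leucine-rich repeat tail. The best known members assemble inflammasomes in immune cells, while a reproductive branch of the family is transcribed mainly in oocytes and supplies maternal proteins to the early embryo. NLRP5 (MATER) is a core protein of the subcortical maternal complex of the egg, NLRP4F has been described as a partner of that complex, and NLRP14 and NLRP4E are known as maternal-effect factors of the mouse embryo. In rodents the Nlrp4 and Nlrp9 branches have been copied several times, which leaves closely similar paralogs. MTR4 is the helicase that feeds nuclear RNA to the exosome, the 3′ to 5′ RNA-degrading complex.

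How alike the copies are decides how far a value can be credited to a single gene, so their sequences are given first. In a reference annotation (GENCODE M21), the coding sequences of Nlrp4c and Nlrp4e were 93.9% identical over 2934 aligned bases, Nlrp4f and the pseudogene Nlrp4g were 93.7% identical over 2030, and Nlrp9a and Nlrp9c were 87.4% identical over 3009. Nlrp4b was the most distant Nlrp4 copy, at 75.7 to 78.9% to the others. Nlrp14 shared 47.4 to 51.5% with the other 9 genes, about what the Nlrp4 genes shared with the Nlrp9 genes.

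A stretch of Nlrp4c and Nlrp4e is shown because their levels differed unequally between the genotypes in the cytoplasm. It is the 90-base window in which they differ most, coding bases 880 to 969 counted from 1 at the A of the start codon, 5′ to 3′, and capitals mark the 14 mismatches.
Nlrp4c: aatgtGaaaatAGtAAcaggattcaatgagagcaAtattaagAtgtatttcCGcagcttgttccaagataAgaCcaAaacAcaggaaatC
Nlrp4e: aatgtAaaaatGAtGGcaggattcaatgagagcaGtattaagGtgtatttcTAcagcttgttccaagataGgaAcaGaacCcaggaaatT
The longest run that both share without a mismatch was 120 bases long, coding bases 121 to 240, and holds nothing that tells the copies apart.
Nlrp4c and Nlrp4e: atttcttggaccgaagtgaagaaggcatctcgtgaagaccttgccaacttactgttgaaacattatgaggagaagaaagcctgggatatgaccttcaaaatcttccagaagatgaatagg

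Exact sharing was counted in windows slid base by base along 1 transcript of each gene. Of all windows of 50 bases in Nlrp4e, 36.9% also occurred in a transcript of another gene, most of them in the predicted genes Gm16443, Gm8486, Gm8685, Gm8728 and Gm4541. The share was 11.9% in Nlrp4c, 9.44% in Nlrp4g, 7.08% in Nlrp4f, 6.54% in Nlrp9a, 6.22% in Nlrp9b, 4.99% in Nlrp9c, 3.11% in Nlrp4a and 0% in Nlrp4b and Nlrp14. In windows of 150 bases, the length of a read, only Nlrp4e had any, at 3.4%. Among those predicted genes, Gm4541 was listed at 0 in every library and the others were not analysed here. The values of Nlrp4b and Nlrp14 are therefore the firmest by sequence, and those of Nlrp4e and Nlrp4c the least certain; how the authors assigned reads that match several genes is not stated in the labels.

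By sequence position, 8 of the genes lie on mouse chromosome 7 by the RefSeq annotation (GRCm38.p6), Nlrp4f lies on chromosome 13 and Nlrp4g on chromosome 9. On chromosome 7, Nlrp9c, Nlrp4a and Nlrp9a follow each other with 0 protein-coding genes between them, and Nlrp4e is the direct neighbour of Nlrp5. RefSeq held a promoter for 8 of the 10 genes, in 10 windows. The 250 bases before the start are shown, 5′ to 3′ on the strand of the gene, for the 2 copies with nearly the same promoter, Nlrp9a and Nlrp9c, and for 3 Nlrp4 genes whose windows hold 1 to 3 CCAAT boxes. Capitals mark CCAAT on either strand (CCAAT or ATTGG), the box that the factor NF-Y is known to bind, and CAGCTG, an E-box that reads the same on both strands.
Nlrp9a, GRCm38.p6, chr7:26534773-26535022, plus strand: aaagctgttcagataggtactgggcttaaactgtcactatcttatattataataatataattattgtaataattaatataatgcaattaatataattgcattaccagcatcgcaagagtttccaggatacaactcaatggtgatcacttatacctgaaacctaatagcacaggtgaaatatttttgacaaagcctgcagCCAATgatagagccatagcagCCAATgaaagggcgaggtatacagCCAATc
Nlrp9c, GRCm38.p6, chr7:26403701-26403950, minus strand: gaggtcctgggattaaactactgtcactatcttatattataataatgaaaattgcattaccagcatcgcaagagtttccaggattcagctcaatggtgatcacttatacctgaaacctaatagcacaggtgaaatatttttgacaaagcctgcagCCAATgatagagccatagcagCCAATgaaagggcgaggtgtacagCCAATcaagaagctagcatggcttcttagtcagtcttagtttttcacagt
Nlrp4c, GRCm38.p6, chr7:6044911-6045160, plus strand: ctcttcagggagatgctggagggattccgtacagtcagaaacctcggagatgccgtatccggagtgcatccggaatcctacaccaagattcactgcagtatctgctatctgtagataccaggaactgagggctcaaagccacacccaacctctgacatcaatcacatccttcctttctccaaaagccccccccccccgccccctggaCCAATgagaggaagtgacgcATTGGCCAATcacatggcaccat
Nlrp4a, GRCm38.p6, chr7:26435364-26435613, plus strand: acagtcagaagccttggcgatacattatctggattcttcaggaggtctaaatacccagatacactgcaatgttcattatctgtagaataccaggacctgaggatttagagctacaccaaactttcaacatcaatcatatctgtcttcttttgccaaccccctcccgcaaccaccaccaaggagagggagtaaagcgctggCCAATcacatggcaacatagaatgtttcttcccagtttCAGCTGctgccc
Nlrp4b, GRCm38.p6, chr7:10687543-10687792, plus strand: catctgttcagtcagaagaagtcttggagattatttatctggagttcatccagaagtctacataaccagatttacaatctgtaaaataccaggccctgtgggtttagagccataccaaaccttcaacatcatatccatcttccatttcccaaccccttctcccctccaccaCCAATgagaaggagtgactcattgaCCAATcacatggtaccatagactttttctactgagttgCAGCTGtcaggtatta

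The Nlrp9a and Nlrp9c windows were 96.1% identical over 203 aligned bases and shared an exact run of 106. Each held 3 CCAAT boxes, as did Nlrp4c, where 2 of them touch on opposite strands. The Nlrp4 windows shown were picked among those that hold the box. The windows of Nlrp9b and Nlrp4f and the other window of Nlrp4a held 0, and that of Nlrp4e, not shown, held 1. Of 32851 promoter windows of this length, 33.8% held a CCAAT box and 2.79% held 3 or more. CAGCTG stood in 13% of them and in the Nlrp4a and Nlrp4b windows shown. TAATTG and TATAAA, also searched on both strands, stood in 7.17% and 12.4% of all windows; Nlrp9a held TAATTG at 2 places, and Nlrp9b held each once. These are matches of letters in a fixed window and no evidence of binding.

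The libraries had the following bounds on what they can show. Skiv2l2, the symbol of Mtr4 in the table, read 19.38 to 21.14 FPKM in WT cytoplasm and 0.3153 to 1.042 in Mtr4-null cytoplasm. In WT nuclei it read 2.452 to 6.057, and in the 3 nuclear libraries labelled Mtr4-null 7.977, 0.1816 and 1.118: replicate 1 goes against its label. The small Cajal body RNA Scarna2 took 58 to 81.7% of the summed FPKM of each nuclear library and 0 to 5.13% of each cytoplasmic one. A share of summed FPKM is not a share of fragments, and its effect on the FPKM of other genes in the nuclei was not tested. Outside the small RNA genes, the 10 Nlrp genes together made 0.312 to 0.563% of the summed FPKM in 5 of the nuclear libraries, 0.958% in replicate 3 of the nuclei labelled Mtr4-null, and 0.777 to 0.954% in the cytoplasms, so replicate 3 had a cytoplasm-like share. The 10 oocyte marker genes, among them Gdf9, Bmp15 and the zona pellucida genes, summed to 10676.8 to 11260.3 FPKM in WT cytoplasm and 9748.09 to 15910 in Mtr4-null cytoplasm, and none was at 0 in a whole group. Read numbers were not used here, so depth and detection limits are unknown. Whether libraries within a group are separate animals is unstated, and each p-value measures the spread between these libraries.

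In WT cytoplasm the 9 detected genes spanned a wide range, and Nlrp14 stood far above its relatives. Nlrp14 read 2019.88, 1867.49 and 1895.56 FPKM in replicates 1, 2 and 3 (1927.64 ± 81.1, SD, n = 3), which placed it between rank 10 and rank 13 of all 23235 entries. Nlrp4f came next with 763.5, 786.9 and 707.6 FPKM, at ranks 42 to 51. Both are thus among the most abundant transcripts of the growing oocyte in this table.

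Below them stood Nlrp4a with 332.3, 346 and 310.1 FPKM, Nlrp9b with 272.9, 272.9 and 267.9, and Nlrp4b with 227.8, 227.6 and 217.7. Nlrp9a followed with 121.8, 146 and 130.7 FPKM. Nlrp4e (104.9, 97.67 and 82.94) and Nlrp9c (80.24, 90.56 and 88.96) overlapped and cannot be ordered, while every other neighbouring pair in this order was apart in all 3 libraries. Nlrp4c was lowest at 20.44, 17.21 and 21.71 FPKM, at ranks 4079 to 4740. The 10 genes summed to 3943.72, 3852.41 and 3723.17 FPKM, of which Nlrp14 made 48.5 to 51.2%.

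**Figure D1:**
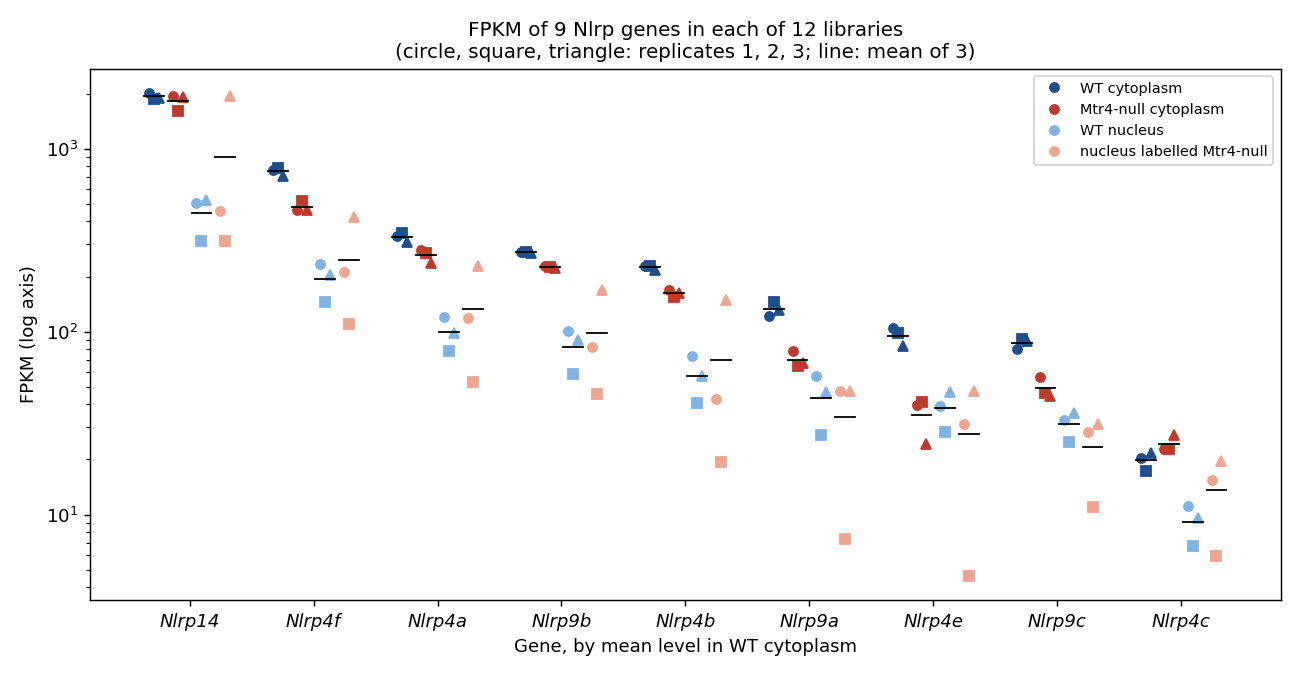
FPKM (log axis) of the 9 detected genes in each of the 12 libraries, by group; symbols are replicates 1, 2 and 3 and lines are means of 3. Nlrp14 lies highest and Nlrp4c lowest in WT cytoplasm, and the nuclear libraries labelled Mtr4-null spread widest, from 313.6 to 1930.12 FPKM for Nlrp14.

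The genotype comparison in the cytoplasm asks how transcripts outside the nucleus differ without MTR4. Nlrp4e was lower in Mtr4-null cytoplasm to 0.368 times its WT mean, Nlrp9a to 0.528, Nlrp9c to 0.566 and Nlrp4f to 0.636, while Nlrp14, the most abundant, read 0.946 times its WT mean. In 7 of the 9 genes every Mtr4-null cytoplasm lay below every WT cytoplasm, where 20.9% of all 13157 tested genes did; Nlrp4c was higher in all 3, as were 23% of all genes, and Nlrp14 overlapped. Whether these differences passed the test depended on which libraries set the spread. The limma fit of all 12 libraries, the primary test, called 0 of the 9 genes at an adjusted p below 0.05, beside 1.88% of all genes; 2 of the 9 had an unadjusted p below 0.05. A limma fit of the 6 cytoplasm libraries alone, the alternative without the widely spread nuclei, found that 6 fell and 0 rose, beside 9.85% of all genes that fell and 13.3% that rose.

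Nlrp4e, the copy next to Nlrp5, read 104.9, 97.67 and 82.94 FPKM in WT cytoplasm and 39.47, 41.2 and 24.3 in Mtr4-null cytoplasm. The groups were far apart, and the highest Mtr4-null library had less than the lowest WT library by a wide margin. On the log2(FPKM + 1) scale the difference was -1.45 ± 0.22 (SE, limma fit of the 6 cytoplasms, adjusted p = 0.0087), and ± 0.58 with an adjusted p of 0.27 in the limma fit of 12 libraries, where the unadjusted p was 0.0247.

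Nlrp9a and Nlrp9c, the pair with the near-identical promoters, showed like differences. They are also 87.4% identical in coding sequence, and a link of either likeness to the differences was not tested. Nlrp9a went from 121.8, 146 and 130.7 FPKM in WT to 78.18, 65.26 and 67.04 in Mtr4-null cytoplasm, a difference of -0.91 ± 0.11 (SE, limma, 6 cytoplasms, adjusted p = 0.0047; 0.56 with 12 libraries). Nlrp9c went from 80.24, 90.56 and 88.96 FPKM to 56.3, 46.15 and 44.47, a difference of -0.82 ± 0.11 (SE, limma, 6 cytoplasms, adjusted p = 0.007; 0.35 with 12 libraries). In neither gene did the groups touch. The third copy, Nlrp9b, had the tightest replicates: 272.9, 272.9 and 267.9 FPKM against 228.5, 224.9 and 222.2. Its difference was small, -0.27 ± 0.07 (SE, limma, 6 cytoplasms, adjusted p = 0.047), and was not called in that fit without any 1 of 5 of the 6 cytoplasms (adjusted p = 0.066 to 0.17; 0.038 without Mtr4-null replicate 2), after median-of-ratios scaling, after rescaling without small RNA genes, with the filter on low values set within the cytoplasms, or with a replicate block.

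Nlrp4f, the most abundant Nlrp4 gene, read 763.5, 786.9 and 707.6 FPKM in WT against 460, 516 and 459.3 in Mtr4-null cytoplasm, a difference of -0.65 ± 0.11 (SE, limma, 6 cytoplasms, adjusted p = 0.013). Nlrp4b, whose sequence no other gene shares in windows of 50 bases, read 227.8, 227.6 and 217.7 against 169, 155.4 and 162.6 FPKM, a difference of -0.46 ± 0.08 (adjusted p = 0.011 in the same limma fit). Both were not called without WT cytoplasm replicate 2 (limma adjusted p = 0.071 and 0.061), and Nlrp4f also not without WT cytoplasm replicate 3 (0.053); the 6 calls became 3 and 4, beside 3.17 and 3.23% of all genes called lower. In the fit of 12 libraries their adjusted p-values were 0.63 and 0.88.

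Neither fit called the other 3 genes. Nlrp4a read 332.3, 346 and 310.1 FPKM in WT against 278.5, 267.3 and 237.5 in Mtr4-null cytoplasm, without overlap (-0.34 ± 0.10, limma, 6 cytoplasms, adjusted p = 0.06). Nlrp4c read 20.44, 17.21 and 21.71 against 22.84, 22.93 and 27.07 FPKM, the only gene whose Mtr4-null values were all above WT (0.28 ± 0.13, limma, 6 cytoplasms, adjusted p = 0.15). Nlrp14 read 2019.88, 1867.49 and 1895.56 against 1945.1, 1610.46 and 1915.74 FPKM, with overlapping groups (-0.08 ± 0.19, limma, 6 cytoplasms, adjusted p = 0.77). The median difference of the 9 genes was -0.46, beside 0 over all genes tested. Each library pooled the same number of oocyte cytoplasms, but FPKM is a share of each library. The amount of RNA per cytoplasm is therefore unknown.

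**Figure D2:**
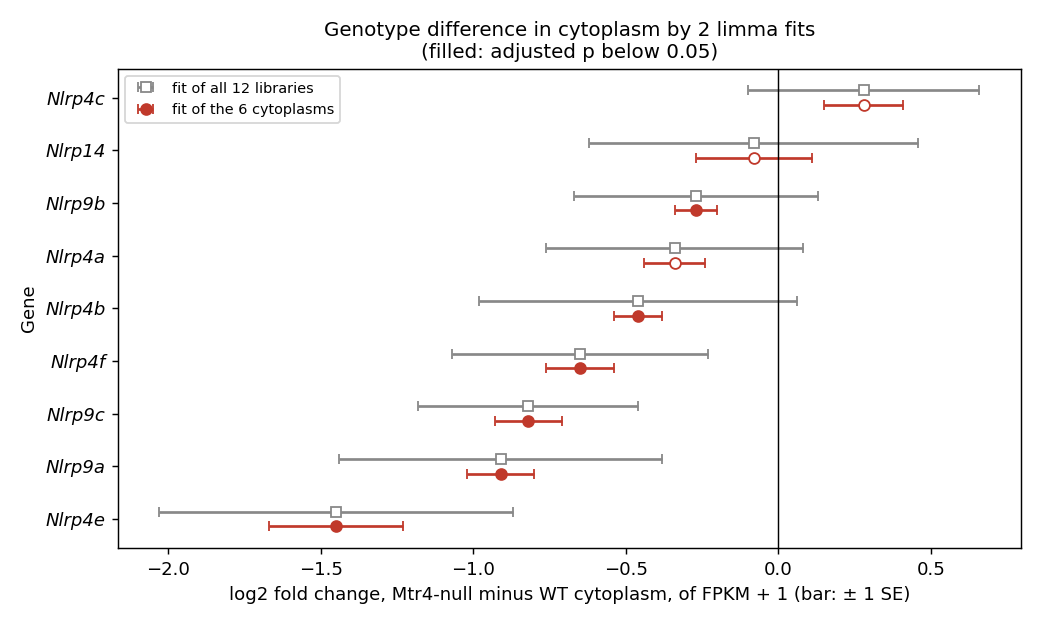
Log2 difference of FPKM + 1 between Mtr4-null and WT cytoplasm for each gene, with bars of 1 SE, from the limma fit of all 12 libraries (squares) and of the 6 cytoplasms (circles); filled symbols have an adjusted p below 0.05. The estimates are the same in both fits, from -1.45 for Nlrp4e to 0.28 for Nlrp4c, and the bars are wider with 12 libraries.

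Other features of the cytoplasm libraries moved with genotype too. The 15 granulosa cell markers, genes of the cells that surround the oocyte, summed to 53.44 to 72.32 FPKM in WT and 27.82 to 38.14 in Mtr4-null cytoplasm, and 5 of the 15 were tested. Of those, the limma fit of 12 libraries called 0, with 2 at an unadjusted p below 0.05. Kitl, Nr5a2 and Gata4 fell in the limma fit of the 6 cytoplasms, with adjusted p-values of 0.027, 0.025 and 0.012, beside 9.85% of all genes. In that fit 1 of the 10 oocyte markers fell and 1 rose. Most of the granulosa sum was Gata4 and Nr5a2, with means of 27.15 and 28.54 FPKM in WT against 8.832 and 18.56 in Mtr4-null cytoplasm. Means were lower in Mtr4-null cytoplasm for 8 of the 15 and higher for 7: Amh, a defining granulosa gene, read 0 to 0.1916 FPKM in WT and 0.1915 to 0.5204 in Mtr4-null cytoplasm. Rn45s, the ribosomal RNA precursor, made 0.078 to 0.398% of the summed FPKM in WT and 0.522 to 4.34% in Mtr4-null cytoplasm. The part of either in the Nlrp differences was not tested. With the cytoplasms rescaled without small RNA genes, Rn45s among those left out, 5 Nlrp genes were called lower, beside 8.75% of all genes. The differences in that limma fit ran from -1.37 for Nlrp4e to 0.36 for Nlrp4c.

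Ratios of paralogs within a library do not depend on how the library is scaled, and show how unequal the differences were. A set of 10 ratios, chosen after the values were seen, were compared between genotypes by exact two-sided permutation tests, where 3 against 3 libraries cannot give a p below 0.1. Nlrp4e over Nlrp4c was 5.13, 5.68 and 3.82 in WT cytoplasm and 1.73, 1.8 and 0.898 in Mtr4-null cytoplasm (exact permutation p = 0.10, adjusted over 10 ratios 0.12). The copies that are 93.9% identical thus stood several-fold apart in WT and close together in Mtr4-null cytoplasm. Their sum, which depends less on how reads are split between them, went from 125.3, 114.9 and 104.7 FPKM to 62.3, 64.13 and 51.38. Reads that Nlrp4e shares with the predicted genes named above can still move it.

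Nlrp4e over Nlrp4a was 0.316, 0.282 and 0.267 in WT against 0.142, 0.154 and 0.102 in Mtr4-null cytoplasm. Nlrp9a over Nlrp9b was 0.446, 0.535 and 0.488 against 0.342, 0.29 and 0.302, and Nlrp9c over Nlrp9b was 0.294, 0.332 and 0.332 against 0.246, 0.205 and 0.2. These 3 ratios were lower in every Mtr4-null cytoplasm (exact permutation p = 0.10 each, adjusted 0.12). Nlrp9a over Nlrp9c, in contrast, overlapped: 1.52, 1.61 and 1.47 in WT against 1.39, 1.41 and 1.51 in Mtr4-null cytoplasm (exact permutation p = 0.20, adjusted 0.22). Nlrp14 made up 54.6 to 60.6% of the summed Nlrp FPKM in Mtr4-null cytoplasm, above the WT range, while Nlrp4f made 14 to 17.5% against 19 to 20.4%. The sum of the 10 genes was 3277.8, 2949.57 and 3160.37 FPKM, below every WT cytoplasm.

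**Figure D3:**
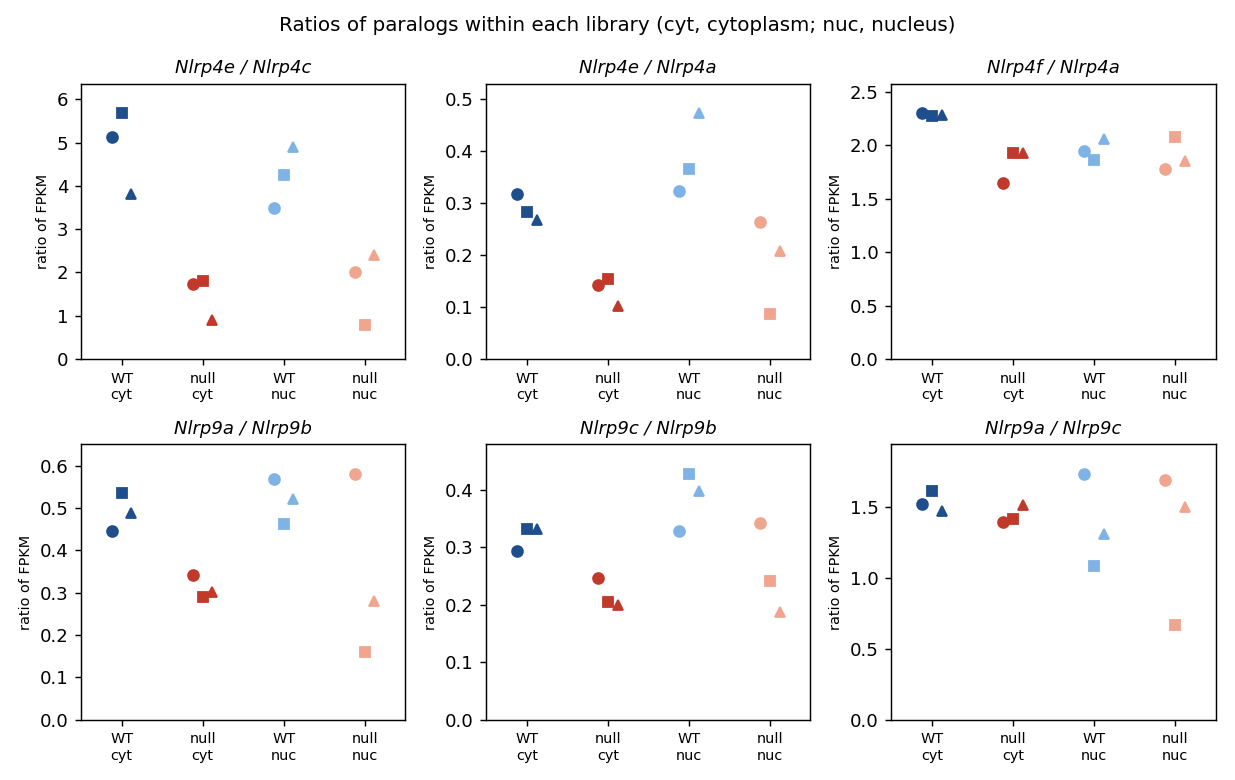
Ratios of FPKM between paralogs within each library, by group (cyt, cytoplasm; nuc, nucleus; null, libraries labelled Mtr4-null); symbols are replicates 1, 2 and 3 and each axis starts at 0. Nlrp4e over Nlrp4c is 3.82 to 5.68 in WT cytoplasm and 0.898 to 1.8 in Mtr4-null cytoplasm, while Nlrp9a over Nlrp9c overlaps.

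The nuclear comparison gave no called difference. All 9 genes overlapped between WT nuclei and nuclei labelled Mtr4-null, where 12.9% of all tested genes did not overlap, and the limma fit of 12 libraries called 0 of 9 beside 2.26% of all genes. A limma fit of the 6 nuclei also called 0, beside 0.038% of all genes, and no member had an unadjusted p below 0.05 in either fit. Nlrp4e read 39.06, 28.43 and 46.53 FPKM in WT nuclei and 31.17, 4.613 and 47.2 in nuclei labelled Mtr4-null, a difference of -0.90 ± 0.58 (limma adjusted p = 0.45). Nlrp14 read 502, 313.7 and 522.2 against 458.5, 313.6 and 1930.12 FPKM (0.58 ± 0.54, limma adjusted p = 0.62).

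The spread in the nuclei labelled Mtr4-null came from replicates 2 and 3, which lay at the low and the high end for 8 of the 9 genes. Replicate 3, the library with a cytoplasm-like share of these transcripts, read 420.5 FPKM for Nlrp4f, 227.5 for Nlrp4a and 148.1 for Nlrp4b. Replicate 2, the library with the lowest Skiv2l2, read 110.1, 53.02 and 19.47 for the same genes. Without replicates 1 and 3, 1 library remains against 3 WT nuclei and is assumed to vary like the other groups. That library, replicate 2, was the lowest nucleus labelled Mtr4-null for all 9 genes. Replicate 3 had stood out by the share of these same genes, so leaving it out favoured lower values. The fit therefore cannot decide whether these genes are lower in Mtr4-null nuclei, and its calls are given as a description only. The limma fit of the remaining 10 libraries then called 6 of the 9 genes lower, from -0.81 for Nlrp9b (adjusted p = 0.049) to -2.77 for Nlrp4e (adjusted p = 8e-04), beside 25.2% of all genes. Nlrp4c, Nlrp4f and Nlrp14 were not called there (adjusted p = 0.2, 0.055 and 0.31). Nlrp4e over Nlrp4c was 3.5, 4.24 and 4.89 in WT nuclei and 2.02, 0.775 and 2.41 in nuclei labelled Mtr4-null, without overlap (exact permutation p = 0.10, adjusted 0.33).

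Nucleus against cytoplasm compares the share of a transcript in each compartment's own libraries, and not its amount in either. In WT all 9 genes had lower FPKM in every nucleus than in every cytoplasm, as did 59.4% of all tested genes. The limma fit of 12 libraries called 8 of 9 lower, beside 45% of all genes, from -2.14 ± 0.54 for Nlrp14 (adjusted p = 0.0051) to -1.06 ± 0.38 for Nlrp4c (adjusted p = 0.029). Nlrp4e was the exception at -1.32 ± 0.58 (adjusted p = 0.063). The median of the 9 was -1.74, beside -0.9 over all genes.

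Scarna2 and other small RNA genes fill most of the nuclear FPKM, so the direction was checked under other scalings. With median-of-ratios scaling, which brought the median of all genes to 0, the limma fit called 5 lower: Nlrp14 (-1.02, adjusted p = 0.023), Nlrp4b (-0.88, 0.038), Nlrp4f (-0.85, 0.0054), Nlrp4a (-0.62, 0.031) and Nlrp9b (-0.62, 0.012), beside 9.84% of all genes called lower. Nlrp4c stood at -0.01 there. After rescaling without small RNA genes and after quantile normalization Nlrp14 and Nlrp4f were called lower in both (adjusted p = 0.04 and 0.018, then 0.0033 and 0.0012), beside 9.16 and 12.2% of all genes, and Nlrp4e turned to 0.06 under the quantile scaling. Among the 13157 genes the share of calls that were higher in the nucleus moved from 21.1% to 66.2, 65.2 and 50.8% under these 3 scalings, in the order median-of-ratios, without small RNA genes, quantile.

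**Figure D4:**
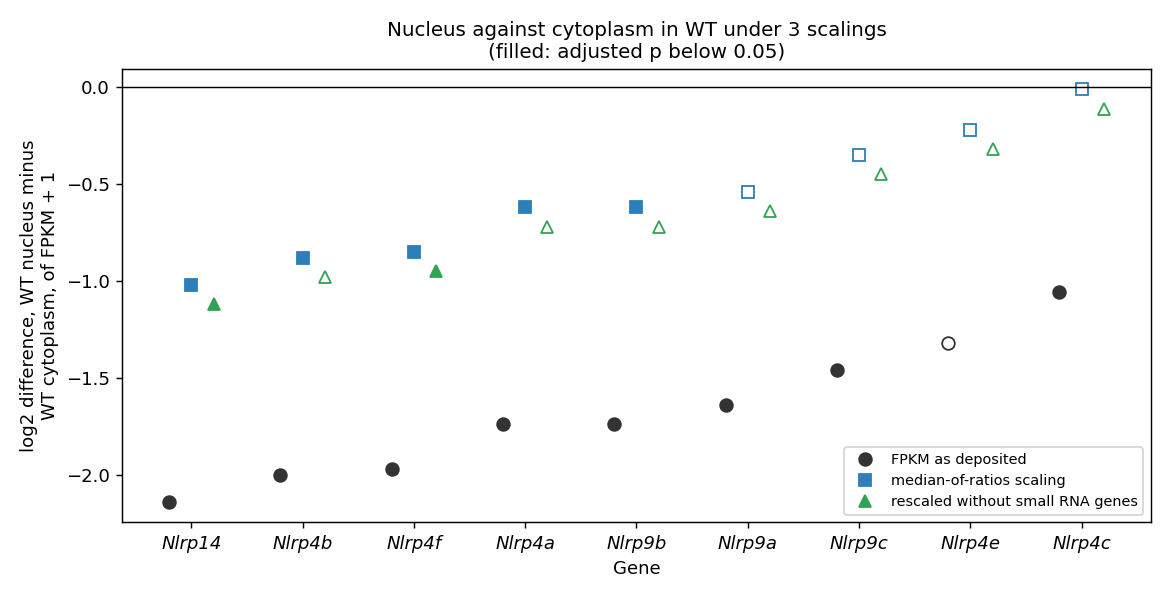
Log2 difference of FPKM + 1 between WT nucleus and WT cytoplasm for each gene with FPKM as deposited, after median-of-ratios scaling and after rescaling without small RNA genes; filled symbols have a limma adjusted p below 0.05. All points lie at or below 0, between -2.14 and -0.01, and Nlrp14 and Nlrp4f are called under all 3.

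In the libraries labelled Mtr4-null, of which nucleus replicate 1 goes against its label, 7 of the 9 genes were lower in every nucleus than in every cytoplasm, beside 35.8% of all genes; Nlrp4e and Nlrp14 overlapped. The limma fit of 12 libraries called 5 lower (Nlrp4a, Nlrp4b, Nlrp4f, Nlrp9b and Nlrp9c) beside 28.1% of all genes, from -1.15 ± 0.36 for Nlrp9c (adjusted p = 0.039) to -1.68 ± 0.52 for Nlrp4b (adjusted p = 0.038). These calls depended on the libraries and the scaling used. Without replicate 1 or 2 of the nuclei labelled Mtr4-null 0 were left, beside 0.593 and 1.66% of all genes called lower. The same held without any 1 of the WT or Mtr4-null cytoplasms (beside 0.144 to 0.836%). It also held in a fit of these 6 libraries alone (0.0912%) and under each of the 3 scalings (0.207 to 0.593%). Calls over all genes fell too, so the loss was not particular to the Nlrp genes. Without WT nucleus replicate 1 or 3, 3 Nlrp calls remained, beside 19.7% of all genes each. With replicate 3 of the nuclei labelled Mtr4-null taken out all 9 were called, but so were 59.8% of all genes. The interaction term of the limma fit, which tests whether the genotype effect differs between compartments, called 0 of the 9 genes beside 0.122% of all genes. It ran from 0.13 ± 0.54 for Nlrp4c to 0.82 ± 0.59 for Nlrp4f (adjusted p = 0.96 and 0.72), and 0 had an unadjusted p below 0.05.

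Related genes put these values in context. Of 23 other NOD-like receptor family genes listed, 21 were in the table and 10 were tested, with a median cytoplasmic difference of -0.08; the limma fit of 12 libraries called 0 in the cytoplasm and 0 in the nucleus, with 3 and 2 at an unadjusted p below 0.05. In the limma fit of the 6 cytoplasms 3 fell and 1 rose, beside 9.85% of all genes that fell and 13.3% that rose. Nlrp2, another oocyte member of the family, read 162.5, 170.6 and 157.6 FPKM in WT against 105.7, 114 and 104 in Mtr4-null cytoplasm (-0.60 ± 0.08, adjusted p = 0.0057). Naip1 and Nlrc4, a sensor of bacterial proteins and its inflammasome partner, were low and fell as well (-1.57 ± 0.22, adjusted p = 0.0068, and -0.79 ± 0.18, adjusted p = 0.029). Nod2, a sensor of bacterial cell wall, rose from 10, 10.56 and 10.83 to 18.92, 18.53 and 20.09 FPKM (0.82 ± 0.10, adjusted p = 0.0045).

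Of 11 genes of the subcortical maternal complex and related maternal genes, 10 were in the table and tested. The limma fit of 12 libraries called 0 in the cytoplasm and 0 in the nucleus (0 and 3 at an unadjusted p below 0.05). That of the 6 cytoplasms called Nlrp2 alone. Nlrp2 and Nlrp5 are also among the other NOD-like receptor family genes above. The median cytoplasmic difference of the 10 was -0.03. Nlrp5, the neighbour of Nlrp4e, read 740, 582.6 and 610.6 FPKM in WT against 818.3, 1173.35 and 866.3 in Mtr4-null cytoplasm (0.55 ± 0.19, limma, 6 cytoplasms, adjusted p = 0.087), opposite in sign to Nlrp4e. Zbed3 and Padi6, the most abundant of the list, had WT means of 3082.56 ± 133.4 and 2556.25 ± 166.4 FPKM (SD, n = 3), above Nlrp14, and were not called. In WT all 10 were called lower in the nucleus by the limma fit of 12 libraries, beside 45% of all genes. The median of these 10 was -1.75, next to -1.74 for the 9 Nlrp genes and -0.9 over all genes tested. These values are from FPKM as deposited, and this list was not examined under other scalings.

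Of 10 genes of inflammasome parts and their known partners, all were in the table and 5 were tested, and no fit called one in the cytoplasm; 0 had an unadjusted p below 0.05 there. Txnip, a thioredoxin-binding protein described as a partner of NLRP3, was abundant at 455.6, 465.9 and 439.8 FPKM in WT against 432.1, 330.4 and 393.3 in Mtr4-null cytoplasm (-0.24 ± 0.13, limma, 6 cytoplasms, adjusted p = 0.21). The kinase gene Nek7 followed at 5.977 to 7.937 FPKM over both genotypes, and the other 8 read 3.779 FPKM or less in every cytoplasm. Casp4 was listed at 0 in every cytoplasm and Casp1 in every Mtr4-null cytoplasm. Pycard, the adaptor of inflammasomes, read 0 to 0.03764 FPKM in WT cytoplasm and 7.143, 9.463 and 11.59 in WT nuclei. It fell to 2.052, 4.964 and 1.987 FPKM in nuclei labelled Mtr4-null (-1.43 ± 0.33, limma, 12 libraries, adjusted p = 0.038; 0.52 in a fit of the 6 nuclei). Use of strand in counting is not given, so reads of overlapping genes cannot be told apart.

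Across the 12 libraries, the genes whose log2(FPKM + 1) was most like the summed level of the 10 Nlrp genes were Spast (Pearson r = 0.995), Fermt2 (0.9947), Khdc1b (0.9947), Magoh (0.9946) and Chd9 (0.9946). The libraries share the split between nucleus and cytoplasm and its scaling, and the correlations are given as a description with no test.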

How the data were processed

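RNA was measured in 12 libraries of mouse oocyte nuclei or cytoplasms, 3 in each of 4 groups taken from the labels; the design text speaks of duplicates. Values are FPKM as the authors deposited them, made with TopHat2 2.1.1 and Cufflinks 2.2.1 on mm9, per the submitters' processing notes. The annotation, the use of strand and the handling of reads that match several genes are not stated there. No read numbers could be had from FPKM, so no count test was run.

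Genes that reached 1 FPKM in 3 or more of 12 libraries (13157 of 23235) entered 1 fit of log2(FPKM + 1) with limma 3.58.1 (R 4.3.3): 4 group means, moderated variances with a trend, 5 comparisons, two-sided p-values adjusted by Benjamini and Hochberg over all genes, calls below 0.05. Fold changes of low genes are understated on this scale. Alternatives were a pseudocount of 0.1, no filter, the 6 libraries compared, 3 scalings, library weights, replicate blocks and leaving out libraries. Scalings, a filter within the cytoplasms and leaving out libraries in the fit of cytoplasms alone were added after seeing the data. The fit was also run on simulated data, in which all genes of a group had the same spread. Genes differ in spread in the real data, so that run cannot say how reliable the calls here are. Transcripts came from GENCODE M21, promoters from RefSeq (GRCm38.p6); alignments used mafft 7.526.

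The genes, lists, ratios and tests were chosen with earlier results of these data known. All 10 Nlrp genes are named, with Skiv2l2, up to 4 called genes of each related list (otherwise the 2 most abundant), and the 5 genes most correlated over the libraries. Nlrp5, Casp1, Casp4 and the marker genes were named after their values were seen.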

Additional observations from a re-analysis of the deposited data

How the results depend on the processing

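Depth is unknown from FPKM and limits the low nuclear values most. The nuclei labelled Mtr4-null hold 1 library against its label and 1 with a cytoplasm-like share. Nuclear results of that genotype are thus the weakest. Fits without nuclei 1 and 3 together leave 1 such nucleus, the lowest for every Nlrp gene tested, and cannot decide how that group differs. The fit of 12 libraries called 0, 0, 8, 5 and 0 Nlrp genes and 248, 298, 7509, 4230 and 16 genes in all, in the order cytoplasm genotype, nucleus genotype, WT compartments, Mtr4-null compartments and interaction.

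In the cytoplasm genotype comparison, Nlrp calls were 6 with only the libraries compared (3050 genes in all), 5 with the filter within them (3211), 5 with median-of-ratios scaling of the cytoplasms alone (3401), 5 with those rescaled without small RNA genes (3303) and 6 with library weights (4802), where Nlrp4a was called (adjusted p = 0.043) and Nlrp9b was not (0.077). They were 3 without the nuclei labelled Mtr4-null 1 and 3 together (1371). All genes called were 139 with no filter, 140 with pseudocount 0.1 and 104 with quantile normalization. Leaving out each library gave 0 to 1 Nlrp calls and 56 to 614 genes in all in the fit of 12 libraries, the 1 call being Nlrp4e (adjusted p = 0.015) with replicate 2 of the nuclei labelled Mtr4-null taken out. In the fit of cytoplasms alone it gave 5, 3 and 4 Nlrp calls without WT replicates 1, 2 and 3 (2041, 1124 and 1210 genes in all) and 5, 6 and 5 without Mtr4-null replicates 1, 2 and 3 (2904, 3114 and 1782). Nlrp14 ranged from -0.13 to 0.

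In the nucleus genotype comparison, genes called were 153 with library weights, 1252 with median-of-ratios scaling, 599 with no filter, 5 with only the libraries compared, 15 with the filter within them, 102 with pseudocount 0.1, 930 without small RNA genes, 1140 with quantile normalization (with 1 Nlrp gene) and 3966 without nuclei 1 and 3 together (with 6 Nlrp genes). Signs turned for Nlrp9b (-0.12 with weights, -0.08 median-of-ratios, -0.19 quantile, -0.09 without small RNA genes), Nlrp4a (0 quantile) and Nlrp4f (-0.01 without small RNA genes), and without nuclei 1 and 3 for Nlrp14 (-0.47), Nlrp4a (-0.87), Nlrp4c (-0.52), Nlrp4f (-0.79) and Nlrp9b (-0.81). Leaving out 1 library gave 125 to 1347 genes, with Nlrp14 from -0.2 to 1.11, Nlrp4a -0.3 to 0.74, Nlrp4b -0.91 to 0.52, Nlrp4e -1.51 to 0.04, Nlrp4f -0.32 to 0.64, Nlrp9a -1.09 to 0.18 and Nlrp9b -0.39 to 0.53.

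In the WT compartments, Nlrp calls were 5 with median-of-ratios scaling (3834 genes in all), 2 with quantile normalization (3262), where Nlrp4e turned to 0.06, and 2 without small RNA genes (3436). In the Mtr4-null compartments they were 8 with weights (8342), 0 with median-of-ratios scaling (646), 0 with no filter (1201), 0 with only the libraries compared (123), 0 with the filter within them (200), 3 with pseudocount 0.1, 0 with quantile normalization (487), 0 without small RNA genes (488) and 9 without nuclei 1 and 3 together (8471). Nlrp4e turned to 0.1 with median-of-ratios scaling and 0.15 with quantile normalization, and ranged from -1.38 to 0.17 over libraries left out, which gave 0 to 9 Nlrp calls and 177 to 8522 genes in all.

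For the interaction, genes called were 961 with weights, 183 with median-of-ratios scaling, 111 with no filter, 76 with quantile normalization, 103 without small RNA genes and 1450 without nuclei 1 and 3 together (with 1 Nlrp gene). Signs turned for Nlrp4b (-0.04 with weights, -0.1 quantile), Nlrp4c (-0.04 median-of-ratios, -0.1 without small RNA genes), Nlrp9a (-0.2 quantile, -0.03 without small RNA genes), Nlrp9b (-0.13 quantile) and Nlrp9c (-0.08 quantile). Without nuclei 1 and 3 all 9 turned: Nlrp14 -0.39, Nlrp4a -0.53, Nlrp4b -1, Nlrp4c -0.8, Nlrp4e -1.32, Nlrp4f -0.14, Nlrp9a -1.45, Nlrp9b -0.54 and Nlrp9c -0.59. Libraries left out gave 5 to 289 genes, with Nlrp14 from -0.11 to 1.2, Nlrp4b -0.45 to 0.98, Nlrp4c -0.18 to 0.6, Nlrp4e -0.06 to 1.49, Nlrp9a -0.18 to 1.09 and Nlrp9b -0.12 to 0.8.

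Whether replicate numbers pair libraries is not stated in the labels. Deviations of same-numbered libraries correlated at -0.16 to 0.3, and at -0.15, -0.12 and 0.07 between the cytoplasms of both genotypes. With 3 libraries per group these values cannot exclude pairing. With a replicate block of the number, Nlrp calls in the Mtr4-null compartments were 8, beside 37.5% of all genes called lower. With a block of genotype by number, the interaction called 69 genes. In the fit of cytoplasms alone, a replicate block left 3 Nlrp calls. Nlrp4b and Nlrp4f had a limma adjusted p of 0.058 there and Nlrp9b 0.15. The share of all genes called with that block was not counted, so the loss of calls cannot be set beside all genes. The cause of these changes was not tested.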
